A study of Homo sapiens with 2 samples.

Results

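The 43 genes described here encode the coats and cargo receptors that carry newly made proteins between the endoplasmic reticulum (ER) and the Golgi. They were taken by name, as the rows of both count files whose Ensembl gene ID maps to a listed symbol, and all 43 were found among 57820 gene IDs. Their messages were measured by mRNA sequencing in HEK293T, a human cell line of embryonic kidney origin. One library came from cells given an siRNA against SRα and the other from cells given a control siRNA, and the labels do not say how many cultures stand behind each. SRα, encoded by SRPRA, is the subunit of the ER receptor that takes over ribosomes held by the signal recognition particle, and the comparison asks how message levels differ once it is depleted. Each condition is thus 1 library: the conditions cannot be tested against each other, no p-value is given, and every interval covers counting error only.

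COPII is the coat that buds vesicles from ER exit sites. The GTPase SAR1 recruits an inner layer of SEC23 and SEC24, which binds cargo, and then an outer cage of SEC13 and SEC31. COPI, or coatomer, is recruited by ARF GTPases and carries escaped ER proteins and receptors back from the Golgi. Because the coats lie in the cytosol and soluble cargo lies in the lumen, membrane receptors such as the p24 (TMED) proteins, the lectins LMAN1 and LMAN2, the KDEL receptors, the ERGIC proteins and SURF4 join cargo to coat. The receptors are made at the ER membrane, whereas coat subunits are made in the cytosol.

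Reads assigned to genes numbered 3896721 after SRα siRNA and 2445200 after control siRNA. SRPRA itself had 117 CPM (counts scaled to library size) after SRα siRNA and 205 CPM after control siRNA, a log2 ratio of -0.81 (95% counting interval -0.998 to -0.63). In bulk RNA, fewer cells with a message and less of it per cell cannot be told apart. As a check of the cell label, the kidney developmental factor PAX2 had 7 reads after SRα siRNA and 1 read after control siRNA. VIM, a filament gene known in the line, had 386 CPM after SRα siRNA and 311 CPM after control siRNA. Of genes of other cell types, the blood genes PTPRC and CD3E had 0 reads in both libraries, the liver gene ALB had 1 read after SRα siRNA and 0 after control siRNA, and the collagen gene COL1A1 had 11.4 CPM after SRα siRNA and 12.5 CPM after control siRNA. Because the SRα siRNA library was read deeper, genes of equal level have more reads in it, and CPM and all ratios are scaled for this. The 43 transport genes had between 69 and 1910 reads each after SRα siRNA and between 58 and 1287 after control siRNA. The counting interval of a ratio reached 1.12-fold to either side for the median member and 1.44-fold for the least-read one.

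Messages for the coats and for the cargo receptors lay on opposite sides of equality, by small amounts. The 18 coat subunits had a median log2 ratio (SRα siRNA over control siRNA) of 0.07, with 12 higher after SRα siRNA, and the 17 membrane cargo receptors had a median of -0.10, with 13 lower. Of all 43 genes, 20 were higher and 23 lower after SRα siRNA, and their median was -0.02. Over the 12747 genes that averaged 1 CPM or more, here called measured, 51.4% were higher and 48.6% lower, with a median of 0.01. Over the 4007 genes that averaged 50 CPM or more, 59.9% were higher and 40.1% lower, against 20 and 20 of the 40 members at that level. The 43 genes together took 0.865% of gene reads after SRα siRNA (exact binomial interval 0.856 to 0.874) and 0.887% after control siRNA (0.875 to 0.899). These are shares of unscaled gene reads. Scaled as the ratios were, the summed reads of the 43 genes gave a log2 ratio of 0.00015 (-0.025 to 0.025).

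No member reached a 1.5-fold difference in either direction. Of all measured genes, 6.55% were higher by that much and 6.97% lower, and 2.15% were higher and 2.57% lower by 2-fold or more, but most of those were read far less than the members. Of the genes at 50 CPM or more, 0.175% were higher and 0.0499% lower by 1.5-fold or more, and by 2-fold or more 0.0499% were higher and 0% lower. The counting interval excluded 0 for 7 members. It lay above 0 for SEC13 and ARCN1, and below 0 for TMED1, PREB, KDELR2, SURF4 and MCFD2. Of measured genes 5.46% had an interval above 0 and 3.39% below it (8.85% in either direction). Among the 40 members at 50 CPM or more these were 2 above 0 (5%) and 4 below it (10%), while all genes at that level gave 11.7% above and 4.89% below (16.6% in either direction). Both members above 0 were coat subunits, and none of the 5 below 0 was. The 2 of 18 coat subunits above 0 (11.1%) were close to the 11.7% of all genes at 50 CPM or more. Below 0 lay 0 of 18 coat subunits, beside 4.89% of those genes, and 3 of 17 receptors (17.6%).

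**Figure D1:**
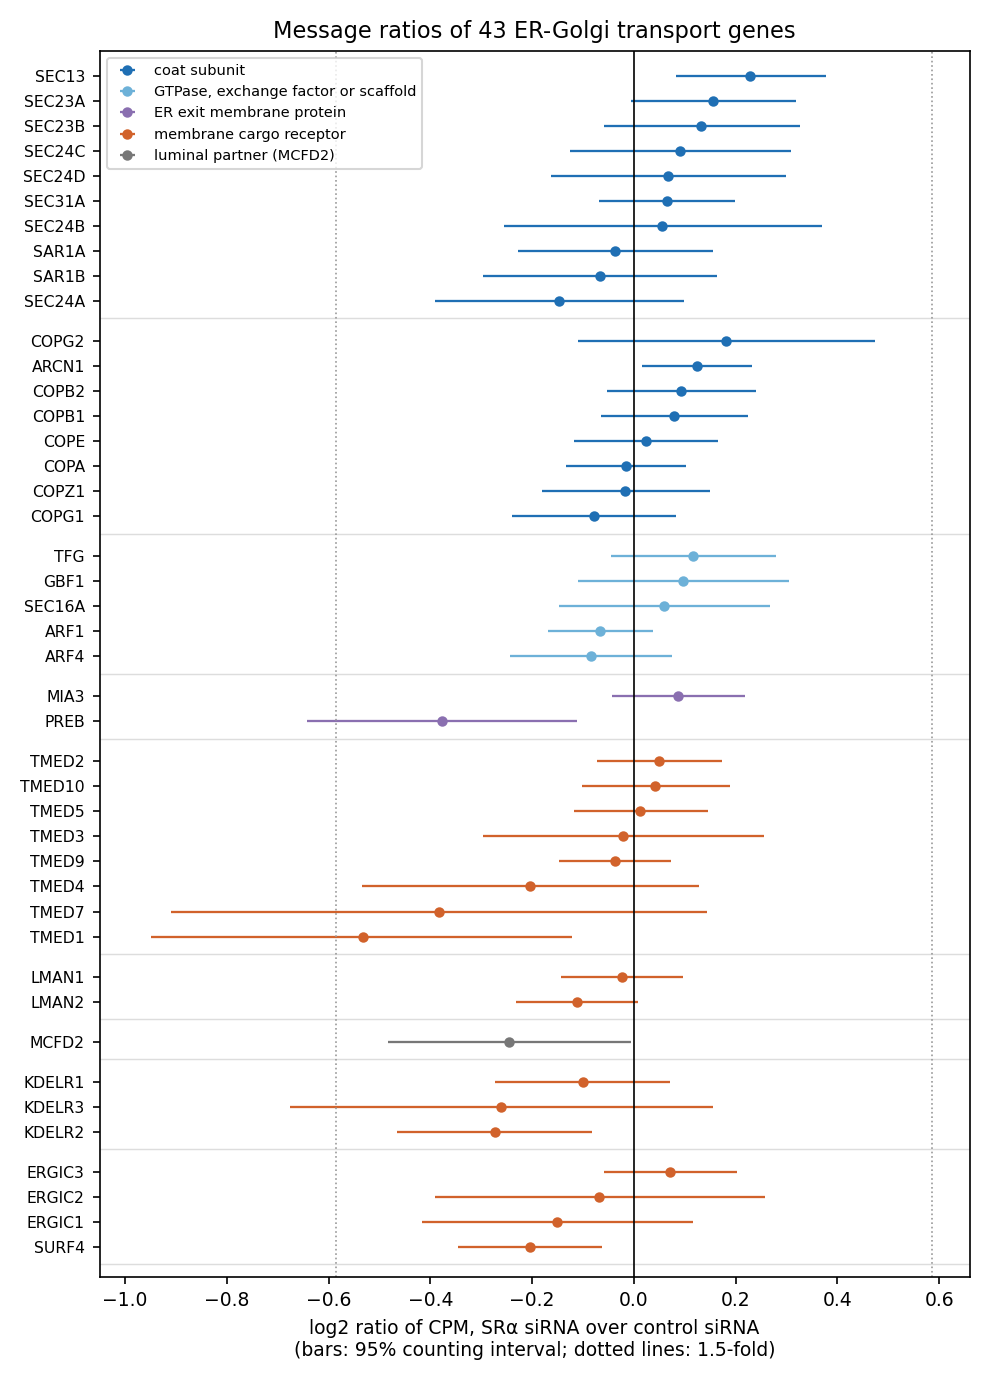
Log2 ratio of CPM, SRα siRNA over control siRNA (x axis), for each of the 43 genes (y axis), grouped by role and coloured by class, with 95% counting intervals as bars and 1.5-fold marked by dotted lines. Points of coat subunits lie between -0.15 and 0.23, points of cargo receptors between -0.53 and 0.07, and no point passes a dotted line.

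In the COPII coat, SEC13 had the highest ratio, and its cage partner lay among the inner-layer genes. SEC13, a cage subunit that also serves in nuclear pores, had 1060 reads (275 CPM) after SRα siRNA and 582 reads (235 CPM) after control siRNA, a log2 ratio of 0.23 (0.08 to 0.38). This was the highest ratio of all 43 members, or 1.17-fold (1.06 to 1.30). Its cage partner SEC31A had 1201 reads after SRα siRNA and 739 after control siRNA, a log2 ratio of 0.06 (-0.07 to 0.20). The exons of SEC31A overlap the noncoding gene THAP9-AS1 on the same strand.

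The inner layer had small ratios of both signs. SEC23A, the GTPase-activating subunit for SAR1, had 862 reads (224 CPM) after SRα siRNA and 498 reads (201 CPM) after control siRNA, a log2 ratio of 0.16 (-0.005 to 0.32), and its close relative SEC23B had 603 reads (157 CPM) after SRα siRNA and 354 reads (143 CPM) after control siRNA, a log2 ratio of 0.13 (-0.06 to 0.33). Both lay above 0 with intervals that reached just below it. Of the cargo-binding SEC24 genes, SEC24B had 226 reads after SRα siRNA and 140 after control siRNA, a log2 ratio of 0.05 (-0.26 to 0.37), and SEC24C had 470 reads after SRα siRNA and 284 after control siRNA, a log2 ratio of 0.09 (-0.12 to 0.31). SEC24D had 410 reads after SRα siRNA and 252 after control siRNA, a log2 ratio of 0.07 (-0.16 to 0.30). SEC24A stood apart from these in sign, with 334 reads (86.8 CPM) after SRα siRNA and 238 reads (96.1 CPM) after control siRNA, a log2 ratio of -0.15 (-0.39 to 0.10), the lowest ratio of any coat subunit. SAR1A, the GTPase that starts the coat, had 571 reads after SRα siRNA and 377 after control siRNA, a log2 ratio of -0.04 (-0.23 to 0.15). SAR1B, the form linked to chylomicron export, had 393 reads after SRα siRNA and 265 after control siRNA, a log2 ratio of -0.07 (-0.30 to 0.16). The intervals of these 8 inner-layer and GTPase genes all included 0. SAR1B and SEC24A lie side by side on opposite strands with overlapping exons, so that reads of one could be counted for the other if strand was not used.

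The 8 COPI subunit genes had log2 ratios between -0.08 and 0.18, with 5 higher and 3 lower after SRα siRNA. ARCN1, the delta subunit, was the most read, with 1868 reads (485 CPM) after SRα siRNA and 1103 reads (445 CPM) after control siRNA, a log2 ratio of 0.12 (0.02 to 0.23). With libraries scaled by total reads, or with trends on expression, GC and length removed, the interval of ARCN1 included 0. COPG2, one of the gamma subunits, had 273 reads (70.9 CPM) after SRα siRNA and 155 reads (62.6 CPM) after control siRNA, a log2 ratio of 0.18 (-0.11 to 0.47). The other gamma subunit, COPG1, had 786 reads after SRα siRNA and 534 after control siRNA, a log2 ratio of -0.08 (-0.24 to 0.08). Their intervals overlapped, although they were the highest and the lowest of the complex.

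The remaining coatomer genes were nearly level. COPB1 (beta) had 1042 reads after SRα siRNA and 635 after control siRNA, a log2 ratio of 0.08 (-0.07 to 0.22). COPB2 (beta prime), which reads dilysine signals on cargo tails, had 1017 reads after SRα siRNA and 614 after control siRNA, a log2 ratio of 0.09 (-0.05 to 0.24). COPA (alpha), its partner in the outer layer, had 1477 reads after SRα siRNA and 961 after control siRNA, a log2 ratio of -0.02 (-0.13 to 0.10). As a fold, the interval of COPA ran from 0.911 to 1.07, so that a larger difference between the libraries was outside counting error. COPZ1 (zeta) had 768 reads after SRα siRNA and 500 after control siRNA, a log2 ratio of -0.02 (-0.18 to 0.15). COPE (epsilon) had 1057 reads after SRα siRNA and 669 after control siRNA, a log2 ratio of 0.02 (-0.12 to 0.17).

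Ratios of the cytosolic GTPases, exchange factor and scaffolds were of similar size, between -0.08 and 0.12. TFG, which gathers COPII carriers at the exit site, had 841 reads after SRα siRNA and 499 after control siRNA, a log2 ratio of 0.12 (-0.04 to 0.28). SEC16A, the scaffold of exit sites, had 505 reads after SRα siRNA and 312 after control siRNA, a log2 ratio of 0.06 (-0.15 to 0.27). GBF1, the exchange factor that loads ARF1 with GTP at the early Golgi, had 515 reads after SRα siRNA and 310 after control siRNA, a log2 ratio of 0.10 (-0.11 to 0.30). These 3 lay above 0, while both ARF GTPases lay below it. ARF1, the most-read member, had 1910 reads (496 CPM) after SRα siRNA and 1287 reads (519.7 CPM) after control siRNA, a log2 ratio of -0.07 (-0.17 to 0.04). ARF4 had 799 reads after SRα siRNA and 545 after control siRNA, a log2 ratio of -0.08 (-0.24 to 0.08). ARF1 has 3 and ARF4 has 4 named pseudogenes in the annotation, and reads that align to several places were not counted.

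Of the membrane proteins of the exit site, PREB (SEC12) and MIA3 (TANGO1) lay apart. PREB, which loads SAR1 with GTP, had 262 reads (68.1 CPM) after SRα siRNA and 219 reads (88.4 CPM) after control siRNA, a log2 ratio of -0.38 (-0.64 to -0.11), or 0.770-fold (0.641 to 0.926). This was the lowest ratio among the 40 members at 50 CPM or more. MIA3, which brings procollagen to COPII carriers, had 1271 reads (330.3 CPM) after SRα siRNA and 770 reads (311 CPM) after control siRNA, a log2 ratio of 0.09 (-0.04 to 0.22). The intervals of PREB and MIA3 did not overlap.

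The p24 proteins are type I membrane proteins that cycle between the ER and the Golgi as hetero-oligomers. Among the 8 TMED genes, 3 were higher and 5 lower after SRα siRNA, with a median log2 ratio of -0.03. The strongly read genes were level. TMED9 had 1708 reads (444 CPM) after SRα siRNA and 1128 reads (456 CPM) after control siRNA, a log2 ratio of -0.04 (-0.15 to 0.07). TMED2, which with TMED10 forms the core of the complex, had 1430 reads after SRα siRNA and 889 after control siRNA, a log2 ratio of 0.05 (-0.07 to 0.17). TMED10 had 1008 reads after SRα siRNA and 630 after control siRNA, a log2 ratio of 0.04 (-0.10 to 0.19). The intervals of all 3 included 0 and spanned less than 0.3 on the log2 scale. TMED5, a carrier of GPI-anchored cargo, had 1215 reads after SRα siRNA and 775 after control siRNA, a log2 ratio of 0.01 (-0.12 to 0.14), and TMED3 had 277 reads after SRα siRNA and 181 after control siRNA, a log2 ratio of -0.02 (-0.30 to 0.26).

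The low ratios of the family came from its 3 least-read genes. TMED1 had 104 reads (27.0 CPM) after SRα siRNA and 97 reads (39.2 CPM) after control siRNA, a log2 ratio of -0.53 (-0.95 to -0.12), the lowest of all 43 members. TMED7 had 69 reads (17.9 CPM) after SRα siRNA and 58 reads (23.4 CPM) after control siRNA, a log2 ratio of -0.38 (-0.91 to 0.14), and TMED4 had 182 reads (47.3 CPM) after SRα siRNA and 135 reads (54.5 CPM) after control siRNA, a log2 ratio of -0.20 (-0.53 to 0.13). Only the interval of TMED1 excluded 0. TMED1 exons overlap DNM2 on the opposite strand, and TMED7 shares exon sequence with the read-through gene TMED7-TICAM2 on the same strand, so both counts are uncertain.

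The KDEL receptors, which retrieve soluble ER chaperones that end in KDEL or a like signal, had 3 of 3 ratios below 0. KDELR2 had 514 reads (134 CPM) after SRα siRNA and 400 reads (162 CPM) after control siRNA, a log2 ratio of -0.27 (-0.47 to -0.08), or 0.827-fold (0.724 to 0.945). KDELR3, the least read, had 114 reads (29.6 CPM) after SRα siRNA and 88 reads (35.5 CPM) after control siRNA, a log2 ratio of -0.26 (-0.68 to 0.16). KDELR1, the most read, had 684 reads (178 CPM) after SRα siRNA and 472 reads (191 CPM) after control siRNA, a log2 ratio of -0.10 (-0.27 to 0.07). From the reads summed over the family, the ratio was -0.19 (-0.31 to -0.06). KDELR2 exons overlap those of DAGLB on the same strand.

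Among the other receptors, SURF4, which exports many soluble secreted proteins, had 964 reads (251 CPM) after SRα siRNA and 715 reads (289 CPM) after control siRNA, a log2 ratio of -0.20 (-0.35 to -0.06). LMAN2 (VIP36), a mannose-binding lectin, had 1396 reads (363 CPM) after SRα siRNA and 971 reads (392 CPM) after control siRNA, a log2 ratio of -0.11 (-0.23 to 0.008), and its interval fell below 0 when libraries were scaled by total reads. LMAN1 (ERGIC-53), the receptor for coagulation factors V and VIII, had 1443 reads (375 CPM) after SRα siRNA and 944 reads (381 CPM) after control siRNA, a log2 ratio of -0.02 (-0.14 to 0.10). Its soluble luminal partner MCFD2 had 337 reads (87.6 CPM) after SRα siRNA and 257 reads (104 CPM) after control siRNA, a log2 ratio of -0.24 (-0.48 to -0.005). The intervals of LMAN1 and MCFD2 overlapped, with that of MCFD2 just below 0.

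The ERGIC proteins are membrane proteins of the compartment between ER and Golgi, and their intervals all included 0. ERGIC1 had 284 reads after SRα siRNA and 203 after control siRNA, a log2 ratio of -0.15 (-0.42 to 0.12). ERGIC2 had 200 reads after SRα siRNA and 135 after control siRNA, a log2 ratio of -0.07 (-0.39 to 0.26). ERGIC3 had 1257 reads after SRα siRNA and 770 after control siRNA, a log2 ratio of 0.07 (-0.06 to 0.20), the highest of any cargo receptor.

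Set against each other, the cargo receptors lay 0.17 below the coat subunits in median log2 ratio. Of the 17 receptors, 16 lay below the median of the coats, and 7 lay below the lowest coat subunit, SEC24A. Of the 18 coat subunits, 8 lay above the highest receptor and 1 lay below the receptors' median. In 261 of 306 pairs of a receptor with a coat subunit (85.3%) the receptor had the lower ratio. The members are genes of the same 2 libraries and not replicates, so these counts describe the libraries and carry no test.

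Summed reads gave the same order. The receptors took 0.330% of gene reads after SRα siRNA (0.324 to 0.335) and 0.351% after control siRNA (0.344 to 0.359). The coat subunits took 0.370% after SRα siRNA (0.364 to 0.376) and 0.364% after control siRNA (0.356 to 0.372). As shares of unscaled gene reads, the receptor intervals did not overlap between the libraries and the coat intervals did. Scaled as the ratios were, summed reads gave the coats a log2 ratio of 0.060 (0.022 to 0.098). For the receptors this was -0.055 (-0.095 to -0.016), and both intervals excluded 0. The same sum was not 0 over genes at large: it was 0.036 over all measured genes and 0.043 over genes at 50 CPM or more. Both of these values lay inside the coat interval and above the receptor interval. There were 0.891 receptor reads for each coat read after SRα siRNA and 0.965 after control siRNA.

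**Figure D2:**
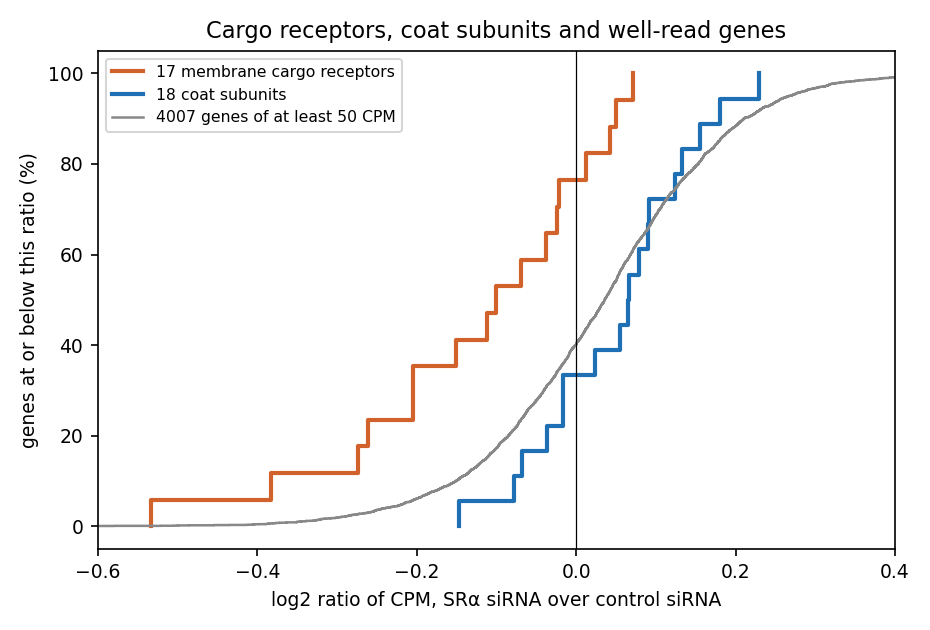
Cumulative share of genes (y axis, %) at or below each log2 ratio of CPM, SRα siRNA over control siRNA (x axis), for the 17 membrane cargo receptors, the 18 coat subunits and the 4007 genes at 50 CPM or more. The receptor curve does not cross to the right of the coat curve, with medians of -0.10 and 0.07 beside 0.04 for the 4007 genes.

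All genes offer a scale for this gap. Of measured coding genes with a predicted hydrophobic segment, a group that takes in membrane and secreted proteins, 54.3% were lower after SRα siRNA, against 76.5% of the receptors. Of those without such a segment 55% were higher, against 66.7% of the coat subunits. At 50 CPM or more, where all 18 coat subunits lie, 64.3% of genes without a segment were higher, with a median log2 ratio of 0.05, so the coats stood close to genes of their level. At that level 49.8% of genes with a segment were lower, against 71.4% of the 14 receptors there. A segment was predicted in 16 of 17 receptors and in 4 of 18 coat subunits. As coat subunits are cytosolic, and the luminal MCFD2 had no predicted segment, the groups by segment are only approximate. The median log2 ratio was -0.03 for the 3857 genes with a segment and 0.03 for the 7589 without, a gap of -0.06, and at 50 CPM or more the gap was -0.05. The gap between receptors and coats had the same sign as that between the whole groups and was larger, which was not tested.

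Depth and base composition moved with the ratios in part. The 3 receptors of fewest CPM, TMED1, TMED7 and KDELR3, had ratios between -0.53 and -0.26. With the 14 receptors at 50 CPM or more, the receptor median was -0.053 and the gap to the coats -0.12. Median GC content was 45.4% for the receptors and 45.0% for the coat subunits. Over genes at 50 CPM or more, the median ratio was 0.08 for the 10% of genes with least GC and -0.05 for the 10% with most. Once trends on expression, GC and length were removed, the coats had a median of 0.015, the receptors of -0.09, and the gap was -0.11. The part of these properties in the remaining gap was not tested.

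**Figure D3:**
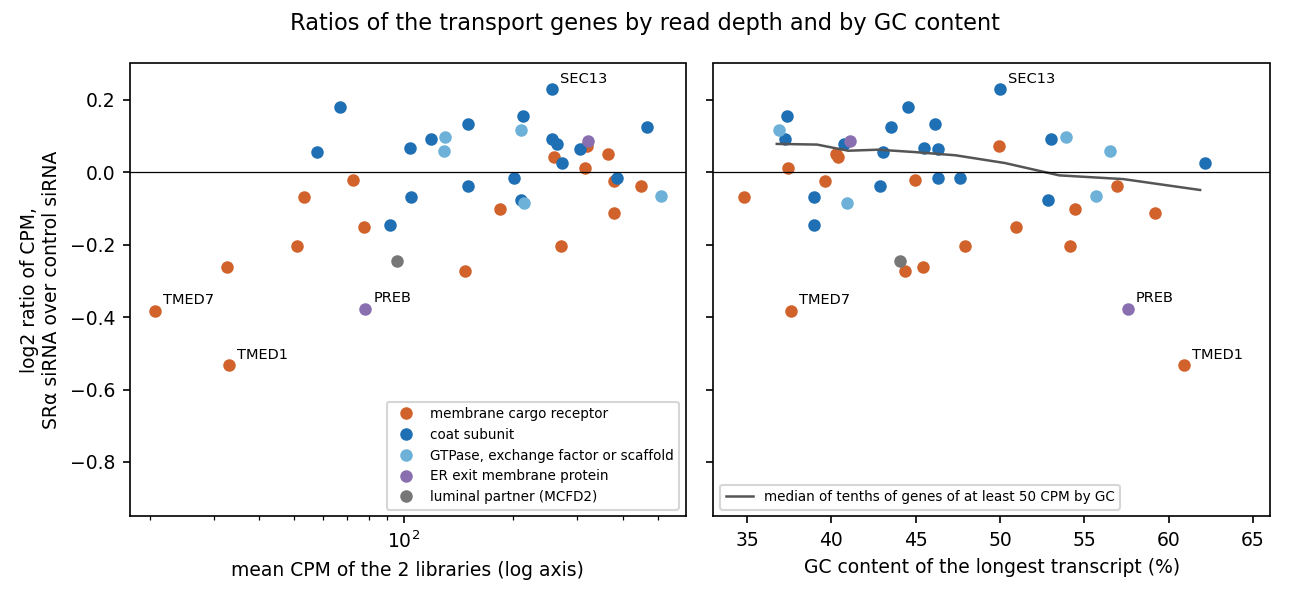
Log2 ratio of CPM, SRα siRNA over control siRNA (y axes), of each member against its mean CPM (left, log axis) and against the GC content of its longest transcript (right, %), where the line joins medians of all genes at 50 CPM or more in 10 groups by GC. The lowest points, TMED1 at -0.53, TMED7 at -0.38 and PREB at -0.38, have mean levels of 33.1, 20.7 and 78.3 CPM and GC contents of 60.9%, 37.6% and 57.6%.

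Several of the genes share a promoter element that their choice did not use. The letters TGACGTGG form the unfolded protein response element (UPRE), which XBP1, ATF6 and relatives of the CREB3 family are known to bind, and genes of the secretory pathway are known targets of these factors. Promoters were RefSeq windows of GRCh38.p14, from 250 bases before to 50 after the first listed start of each gene, and were matched for 37 of 43 members. Searched on both strands, the element was in 9 of 37 members (24.3%), against 0.795% of 27305 promoters, 0.833% of 15843 protein-coding genes and 1.33% of 3298 genes at 50 CPM or more. Among those matched, it was in 5 of 17 coat subunits and in 1 of 13 receptors. The windows below surround one site in each of the 9 genes, to show that the same 8 letters recur in different surroundings, with the element in capitals and each window read along the gene's strand. Capitals reading CCACGTCA hold the element on the other strand.
SEC23A (chr14:39103206-39103265, minus strand): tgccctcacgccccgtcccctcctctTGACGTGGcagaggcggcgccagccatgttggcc
SEC24A (chr5:134648580-134648639, plus strand): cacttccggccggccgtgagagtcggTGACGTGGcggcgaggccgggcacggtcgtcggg
COPA (chr1:160343221-160343280, minus strand): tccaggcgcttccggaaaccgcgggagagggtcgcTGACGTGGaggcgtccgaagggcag
COPB1 (chr11:14499826-14499885, minus strand): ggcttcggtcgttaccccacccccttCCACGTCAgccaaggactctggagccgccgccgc
COPB2 (chr3:139389810-139389869, minus strand): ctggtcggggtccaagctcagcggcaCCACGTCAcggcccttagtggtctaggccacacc
SEC16A (chr9:136484711-136484770, minus strand): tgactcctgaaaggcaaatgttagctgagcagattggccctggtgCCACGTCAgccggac
ARF1 (chr1:228082666-228082725, plus strand): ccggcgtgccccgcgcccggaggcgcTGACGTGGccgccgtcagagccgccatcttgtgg
GBF1 (chr10:102245502-102245561, plus strand): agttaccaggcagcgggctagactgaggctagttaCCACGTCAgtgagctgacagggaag
KDELR3 (chr22:38468024-38468083, plus strand): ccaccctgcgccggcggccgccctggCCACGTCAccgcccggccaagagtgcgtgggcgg

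The element began 4 bases before the start in SEC23A, 16 before it in ARF1, 46 before it in KDELR3 and 48 before it in COPB1, and lay 163 and 179 bases before it in COPB2 and SEC24A. In COPA and GBF1 it began at base 6 after the start and in SEC16A at base 16, and COPB2 had 2 sites. The 9 genes did not share a direction. Their log2 ratios ran from -0.26 in KDELR3 and -0.15 in SEC24A to 0.10 in GBF1 and 0.16 in SEC23A, with 5 above 0, 4 below it and a median of 0.06, against -0.002 for matched members without it. That contrast mixes classes, since only 1 of the 9 is a receptor. Within the coat subunits the medians were 0.079 with the element and 0.060 without it. Over all measured genes, the 95 with the element had a median of 0.03 and those without it 0.01, while at 50 CPM or more the order was the opposite, with 0.017 for the 44 with the element and 0.04 for those without it.

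Some other elements had no exact match in these windows. The ER stress element (CCAAT, 9 bases of any kind, CCACG), its variant ERSE-II (ATTGG, any base, CCACG) and the palindrome TGACGTCA (CRE) were in 0 of 37 members, against 0.0806%, 0.0549% and 1.98% of all promoters. The ER stress element and ERSE-II are so rare over all promoters that no match among 37 says little. The letters CCACG, which end the ER stress element and overlap the UPRE, were in 33 of 37 members (89.2%), against 54.4% of promoters of genes at 50 CPM or more. The letters CCAAT were in 15 of 37 members (40.5%), against 35.7% of all promoters. A match in letters is a description, and no match says only that these letters are not in the window.

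Levels per length were in nearly the same order in both libraries. In reads per kilobase of exon scaled to library size (RPKM), the members ran from 3.70 to 182 after SRα siRNA and from 3.75 to 187 after control siRNA. TMED9 stood highest, with 182 RPKM after SRα siRNA and 187 RPKM after control siRNA. LMAN2 followed with 154 RPKM after SRα siRNA and 166 RPKM after control siRNA, and ARF1 with 151 RPKM after SRα siRNA and 158 RPKM after control siRNA. This order depends on the length used. By the longest coding transcript, TMED9 was still highest, but LMAN2 (202 RPKM after SRα siRNA, 218 after control siRNA) lay below ARF1 (252 and 264). The Spearman correlation of the 43 levels between the libraries was 0.992 (Pearson 0.993 on a log scale), a description across genes, which are not independent replicates.

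Coatomer takes up its subunits in equal numbers, but COPG1 and COPG2 are alternative forms of the gamma subunit. Over all 8 genes, message levels in RPKM spanned 6.78-fold after SRα siRNA and 7.05-fold after control siRNA, with COPG2 lowest. The next lowest was COPB2, with 32.3 RPKM after SRα siRNA and 30.3 RPKM after control siRNA. ARCN1 had 116 RPKM after SRα siRNA and 107 RPKM after control siRNA, and COPG2 had 17.1 RPKM after SRα siRNA and 15.1 RPKM after control siRNA. COPA, COPB1, COPG1 and COPZ1 lay between 46.2 and 52.8 RPKM after SRα siRNA and between 48.7 and 51.8 RPKM after control siRNA. By exon length those 4 were close to each other, with ARCN1 and COPE above them. By the length of the longest coding transcript, COPZ1 had 250 RPKM after SRα siRNA and 253 RPKM after control siRNA. It then lay above COPE (240 and 236 RPKM, in the same order) and ARCN1 (120 and 110 RPKM). TMED3 was lowest of all 43 at 3.70 RPKM after SRα siRNA and 3.75 RPKM after control siRNA, but its annotated exons sum to 19470 bases. By the length of its longest coding transcript it had 48.8 RPKM after SRα siRNA and 49.6 RPKM after control siRNA. Levels per length therefore depend on which transcripts are taken, while the ratios between libraries do not.

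**Figure D4:**
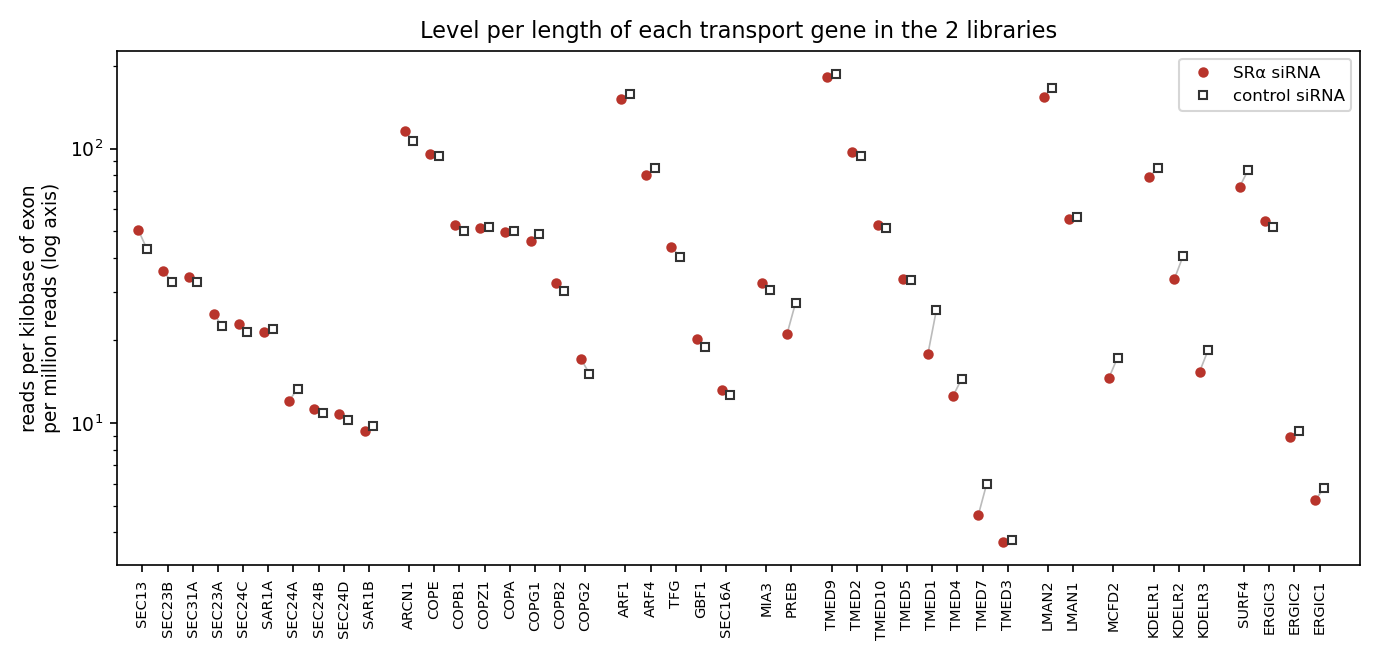
Reads per kilobase of exon, scaled to library size (y axis, log axis), of each of the 43 genes (x axis, grouped by role and sorted by level) after SRα siRNA (filled circles) and after control siRNA (open squares). The symbols of a gene lie close together beside a range from 3.70 to 182 RPKM among the genes, and the widest gap is that of TMED1, with 17.9 RPKM after SRα siRNA and 25.9 RPKM after control siRNA.

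Shares of paralogues in the reads of their family shifted by at most 3.28 percentage points between the libraries. In all 9 families examined, the exact binomial 95% interval of each gene's share in one library overlapped its interval in the other. Such an overlap does not show that the shares were equal. SEC23A took 58.8% of SEC23 reads after SRα siRNA (56.3 to 61.4) and 58.5% after control siRNA (55.1 to 61.8). SAR1A took 59.2% of SAR1 reads after SRα siRNA and 58.7% after control siRNA, and ARF1 took 70.5% of ARF1 and ARF4 reads after SRα siRNA and 70.3% after control siRNA. In percentage points the widest shift was that of COPG2, with 25.8% of gamma subunit reads after SRα siRNA (23.2 to 28.5) and 22.5% after control siRNA (19.4 to 25.8). TMED1, a small part of its family, shifted more in proportion. It took 1.74% of TMED reads after SRα siRNA (1.42 to 2.10) and 2.49% after control siRNA (2.03 to 3.03), with intervals that barely overlapped. KDELR1 took 52.1% of KDEL receptor reads after SRα siRNA (49.4 to 54.9) and 49.2% after control siRNA (46.0 to 52.4). SEC24A took 23.2% of SEC24 reads after SRα siRNA and 26.0% after control siRNA.

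**Figure D5:**
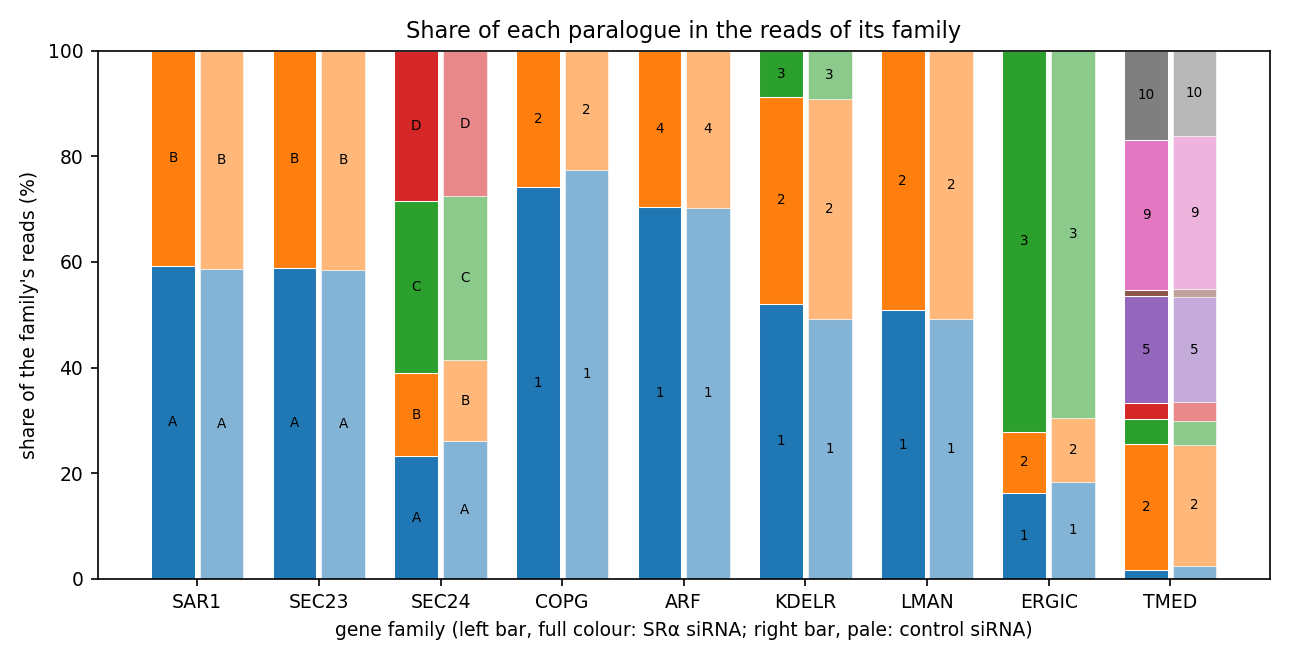
Share of each gene in the summed reads of its family (y axis, %) for 9 families (x axis), with SRα siRNA as the left, full-coloured bar and control siRNA as the right, pale bar of each pair. No share differs by more than 3.28 percentage points, the shift of COPG1 and COPG2.

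Of 83 other genes of early secretory traffic, 76 were measured, with 44 higher and 32 lower after SRα siRNA and a median log2 ratio of 0.04. At least 1.5-fold apart were TRAPPC6B, higher, and GOSR2 and CREB3L1, lower. Of all measured genes, 6.55% were higher and 6.97% lower by that much. TRAPPC6B, a subunit of the TRAPP tether, had 124 reads (32.2 CPM) after SRα siRNA and 45 reads (18.2 CPM) after control siRNA, a log2 ratio of 0.82 (0.32 to 1.35). The Golgi SNARE GOSR2 had 8 reads after SRα siRNA and 13 after control siRNA, and CREB3L1, a membrane-bound factor of secretory genes, had 6 reads after SRα siRNA and 10 after control siRNA. The intervals of GOSR2 and CREB3L1 included 0. At 5 CPM or more, the next highest were COG8, of the COG tether, at 0.55 (-0.06 to 1.2) and TEX261, an ER exit protein, at 0.41 (-0.62 to 1.55). The lowest were the SNARE STX17 at -0.57 (-1.18 to 0.03), YIF1B at -0.37 (-0.68 to -0.06) and CREB3 at -0.34 (-0.86 to 0.19).

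Tethers and transcription factors of the pathway differed in the balance of signs. Of 29 genes listed as tethers 20 were higher after SRα siRNA (median 0.11), and of 6 measured factors 5 were lower (median -0.25). Over all measured genes 51.4% were higher and 48.6% lower, and at 50 CPM or more 59.9% and 40.1%. Among the factors, CREB3L1, CREB3L4 and CREB3 were little read, with 6, 22 and 70 reads after SRα siRNA. After control siRNA they had 10, 17 and 57 reads. Only CREB3L2 among the factors had an interval that excluded 0. Of 11 genes listed as SNAREs 5 were higher (median -0.01), of 16 small GTPases and regulators 9 (median 0.03), and of 14 relatives of the members 9 (median 0.10). The SNARE list includes SCFD1, which is not itself a SNARE and was among those higher. In all, 4 of the 76 measured genes had an interval above 0 and 3 below it. Over all measured genes these were 5.46% and 3.39%, so the list did not stand out. Named after their values were seen, the other genes whose intervals excluded 0 were ZW10 at 0.32 (0.11 to 0.52), COG4 at 0.39 (0.07 to 0.72) and the SNARE GOSR1 at 0.36 (0.05 to 0.69), all higher, and CREB3L2 and BCAP31, lower. CREB3L2 (BBF2H7), known in mouse cartilage to drive Sec23a, had 560 reads (146 CPM) after SRα siRNA and 424 reads (171 CPM) after control siRNA, a log2 ratio of -0.23 (-0.42 to -0.05), beside 0.16 for SEC23A. BCAP31, an ER membrane sorting protein listed here with the tethers, had -0.14 (-0.26 to -0.02). XBP1 had 0.06 (-0.11 to 0.22) and ATF6 -0.13 (-0.33 to 0.06).

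Some relatives of the set had few or no counted reads. COPZ2, the other zeta subunit, and TMED6, SEC16B, LMAN1L and ATF6B had 0 reads in both libraries, which allows up to 0.780 CPM after SRα siRNA and 1.21 CPM after control siRNA for reads that align to a single place. Reads that align to several places were not counted, so a gene with copies in the genome can stand at 0 while expressed, and whether this holds for ATF6B or the others was not tested. SEC31B had 1 read after SRα siRNA and 3 after control siRNA. SEC22B was not matched by gene ID and is not analysed here.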

How the data were processed

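The deposited files give raw read counts, as whole numbers for each Ensembl gene, for 1 SRα siRNA library and 1 control siRNA library. Per the labels' protocols, RNA was taken with TRIzol and libraries were made with a stranded mRNA kit; per the submitters' processing notes, cutadapt, STAR 2.5.2b and hg19 were used. For the counting program, the use of strand and the release of the annotation, the sources used here give nothing. The 5 summary lines were left out of library sizes: alignments that were not unique came to 76.5% of entries in the SRα siRNA library and 79.6% in the control siRNA library, and of uniquely aligned reads 7.49% in the SRα siRNA library and 7.23% in the control siRNA library lay in no gene, while 4.58% and 4.67%, in the same order, matched several genes. Counted reads are unique alignments only, and 7 members have named pseudogenes, 16 in all. By GENCODE 29, exons of 7 members overlap a gene on the same strand and of 22 a gene on the opposite strand.

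Members were matched by symbol through a table of gene names. Libraries were scaled with edgeR 4.0.16 TMM factors (effective sizes 3847820 and 2476276) in R 4.3.3. Log2 ratios are SRα siRNA over control siRNA CPM after adding a prior count of 0.5, adjusted for library size. Intervals are exact (Clopper-Pearson) 95% intervals of the 2 counts given their sum, tested on simulated data, and without molecular identifiers they cover counting error only. A gene that averaged 1 CPM or more over both libraries was called measured. With 1 library per group nothing was tested, and a count at a fixed fold of 1.5 stands in. GENCODE 29, on another build, gave gene type, length, GC content and coding sequence by gene ID alone. Hydrophobic segments were windows of 19 residues with a Kyte-Doolittle mean of at least 1.6, or of 12 residues with at least 2.0 within the first 25. Trends were removed by a weighted spline fit over all measured genes (4 degrees of freedom for expression, 5 for GC and 4 for length). Python 3.11.15 with numpy 2.4.6, pandas 2.3.3, scipy 1.17.1 and matplotlib 3.10.9 was used.

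All members are named, with the 5 highest and 5 lowest of at least 50 CPM and those whose interval excludes 0 in full. Of the 83 other genes the 3 highest and 3 lowest of at least 5 CPM and those past 1.5-fold are named. The members, their classes and the lists were chosen with earlier results of these data known. Alternatives were DESeq2 1.42.0 size factors, totals, upper quartile factors, other filters, a prior count of 2, trend removal, coding genes only, means and other class make-up.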

Additional observations from a re-analysis of the deposited data

How the results depend on the processing

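No paired analysis was possible because each group holds 1 library, and for the same reason no library could be left out. The gap between cargo receptors and coat subunits was below 0 in all 16 alternatives, from -0.18 with list means to -0.11 with trends removed. Many of these could not change it. Other library scalings shift all ratios alike, and some filters kept every member, so the gap stayed at -0.17 in those settings. The gap was -0.12 at 50 CPM or more and from summed reads. With alternatives chosen after seeing the data it was -0.18 without TMED genes, -0.13 without TMED1 and TMED7, and -0.13 without members that overlap a gene on the same strand. The coat median was 0.015 with trends removed and the receptor median -0.053 at 50 CPM or more. The median of all members was -0.053 by total reads, -0.050 by totals without mitochondrial and the 10 most-read genes, and -0.064 with trends removed, and the median of other early secretory genes was 0.0014 and 0.0049 under those totals. Intervals above 0 numbered 1 in place of 2 under both totals and with trends removed, when ARCN1 dropped out, and the cause of these shifts was not tested. Under both totals 11 coat subunits were higher and 14 receptors lower. None of the 427 single ratios moved by more than its counting interval, but most settings could not have moved one that far. Filters leave a ratio as it was, and the largest shift from another scaling was -0.036, with total reads. The narrowest interval reached 0.103 to either side on the log2 scale. Levels per length moved in 78 of 86 cases with the longest coding transcript as length, and family shares in 43 of 56 when taken per length. At this depth a difference below 1.12-fold cannot be seen for the median member.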
